A study of Gallus gallus with 28 samples.

Results

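A group of 52 genes is described here that differed between the B-cell line DT40 and its BTK knockout. In the knockout carrying active human BTK, their levels lay off the knockout level in the direction of DT40 by over 0.5 of that difference. In the knockout carrying BTK without kinase activity, they lay less far in that direction, or in the opposite one. The members were chosen by their measured levels among 13009 named genes. For each gene the mean log2 difference of DT40 from the knockout, called D below, was taken over 6 pairs of arrays in serum batches 2 and 3. Genes with a D of at least 1 log2 in size and 1 sign in all 6 pairs were kept, and 231 genes passed. A share then said how far a line carrying BTK lay from the knockout towards DT40 in serum batch 1, where 0 is the knockout level and 1 is the full distance D. Members have a mean share above 0.5 with active BTK and below 0.5 with inactive BTK. A share has no upper limit, so a gene with a high share can lie beyond DT40 and far from it. Of the 58 genes that met these limits, 6 were left out by name (the rule names 9 genes to leave out), which gave 52. Every D and share below is therefore a description of what chose the genes, given without a test.

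The study measured log2 expression on 28 Affymetrix chicken arrays. The parental line DT40 comes from a chicken B-cell lymphoma, has its own BTK and bears IgM on its surface. B7.10 is the BTK knockout made from it, B41-13 is the knockout carrying human BTK, and B46-5 is the knockout carrying human BTK with its kinase inactive. Cells were taken 6 h or 24 h after the start without stimulation, or 2 h or 6 h after stimulation with IgM (M4), an antibody that engages the surface IgM. Fetal calf serum of 3 batches was used for DT40 and B7.10 at all conditions but 2 h (10 arrays a line), while B41-13 and B46-5 have 4 arrays each, all in serum batch 1. An array was made from a pool of 10 experiments, and the 3 arrays of a group differ in serum batch. Unless the batch is fitted as a block, p-values from groups of 3 arrays thus measure the spread between pools and serum batches together. In fits of serum batch 1 alone, with 1 array per line and condition, p-values measure the spread left after line and condition. Each genotype is 1 cell line, so BTK and any other difference between these lines cannot be told apart.

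BTK is a Tec-family tyrosine kinase. After the B-cell receptor is engaged, Src-family and SYK kinases activate it, and it phosphorylates phospholipase C gamma 2, which starts calcium release and protein kinase C signalling. From there the signal reaches NF-kB, NFAT and other transcription factors. A kinase-inactive BTK can still bind other proteins.

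The chicken BTK probe set had a mean of 9.91 log2 in DT40 (SD 0.35, n = 10 arrays), and in B7.10 its mean was 4.99 (SD 0.18, n = 10 arrays). It read 5.84 ± 0.16 (SD, n = 4 arrays) in B41-13 and 5.25 ± 0.10 (SD, n = 4 arrays) in B46-5, and whether it reads the human constructs was not tested. Of 20 measured B-cell markers, 18 lay above 3.98 log2 in all 4 lines, the limit under which 40% of probe sets fell and which is used as near background. The median level of the B-cell markers lay between 8.97 and 9.33 in the 4 lines. For the markers of T cells, myeloid cells, erythroid cells and thrombocytes, or fibroblasts it lay between 3.83 and 4.67 in every line. Of these other markers 8 of 13, 9 of 13, 3 of 5 and 9 of 20, in that order, also lay above 3.98 in all 4 lines. Of the members, 0 belong to a marker list. For 5 arrays another label contradicts the title on the line, the time, the stimulation or the serum (2 arrays of B7.10, and 3 in B41-13 or B46-5), and titles were used. Without those arrays 41 of the 52 genes still met the rule. The 11 that did not were LMO2, LOC107051857, PLXNC1, PAG1, VMP1, CAMKK2, KIAA0040, CACFD1, PRKCB, PLCH1 and GADD45A. In 5 of them D came to lie under 1 in size (lowest PRKCB at -0.90), in 3 the share of B41-13 under 0.5 (lowest LOC107051857 at 0.46), and in 4 the share of B46-5 above 0.5 (highest PLXNC1 and CAMKK2 at 0.62). Among those that stayed, D changed most in MME, from 1.70 to 1.23, and in FYN, from 2.22 to 1.76.

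Most of the group was lower in the knockout: 36 genes were higher in DT40 and 16 were higher in B7.10. The split was similar among all 231 genes past the limits on D, with 162 higher in DT40 and 69 higher in B7.10. The size of D ran from 1.01 to 4.17 log2, with a median of 1.41. The median share was 0.81 in B41-13 (range 0.51 to 2.55) and 0.10 in B46-5 (range -0.65 to 0.49). In B46-5 the 36 genes higher in DT40 had a median share of -0.00, which is the knockout level, and the 16 genes higher in B7.10 had a median share of 0.30. The DT40 arrays of serum batch 1, which the rule did not use (it did use the B7.10 arrays they are set against), had a median share of 1.07. They exceeded 0.5 for 50 of the 52 genes, and the exceptions were LOC395611 at 0.32 and RCL1 at 0.26.

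**Figure D1:**
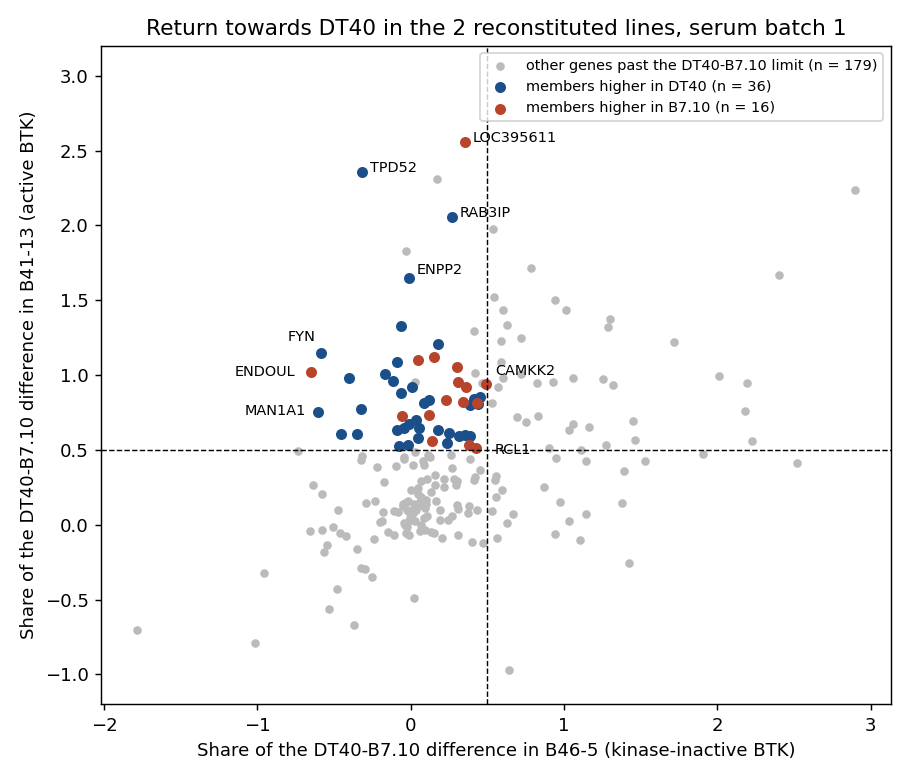
Share of the DT40-B7.10 difference found in B46-5 (horizontal axis) and in B41-13 (vertical axis), as means of 4 conditions in serum batch 1, for the 231 genes past the limits on D. Coloured points are the 52 members, which lie above 0.5 on the vertical axis and left of 0.5 on the horizontal axis by the rule (dashed lines), and LOC395611, TPD52 and RAB3IP lie above 2.

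The median position of the genes was similar at the 4 conditions. In B41-13 the median share was 0.79 at 6 h and 0.71 at 24 h without stimulation, and 0.89 at 2 h and 0.88 at 6 h with it. In B46-5 it was 0.09, 0.11, 0.09 and 0.12 in the same order. Single genes varied more, and in B46-5 the share lay below 0.5 at all 4 conditions for 40 genes and at 3 for 9. It did so at 2 conditions for 2 genes and at only 1 for CAMKK2. The share in B41-13 exceeded 0.5 at all 4 conditions for 32 genes, at 3 for 14 and at 2 for 6, which were LMO2, MME, ZRANB3, CKS2, NOCT and CACFD1. The levels of B41-13 and B46-5 did not overlap for 39 of the 52 genes, against 13.9% of all named genes, a contrast that the rule used. A share of 1 is the full distance D of serum batches 2 and 3, and 13 genes reached that in B41-13. It is not the DT40 level of serum batch 1, where DT40 itself had a median share of 1.07. B41-13 lay short of the DT40 arrays of serum batch 1 for 40 genes and beyond them for 12, and the levels of these lines did not overlap for 13 genes (14.3% of all named genes). B46-5 and B7.10 did not overlap in serum batch 1 for 16 genes, against 11.5% of all named genes, and DT40 and B7.10 did not overlap over all 20 arrays for 40 genes, against 3.66%, again by the choice of the genes.

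**Figure D2:**
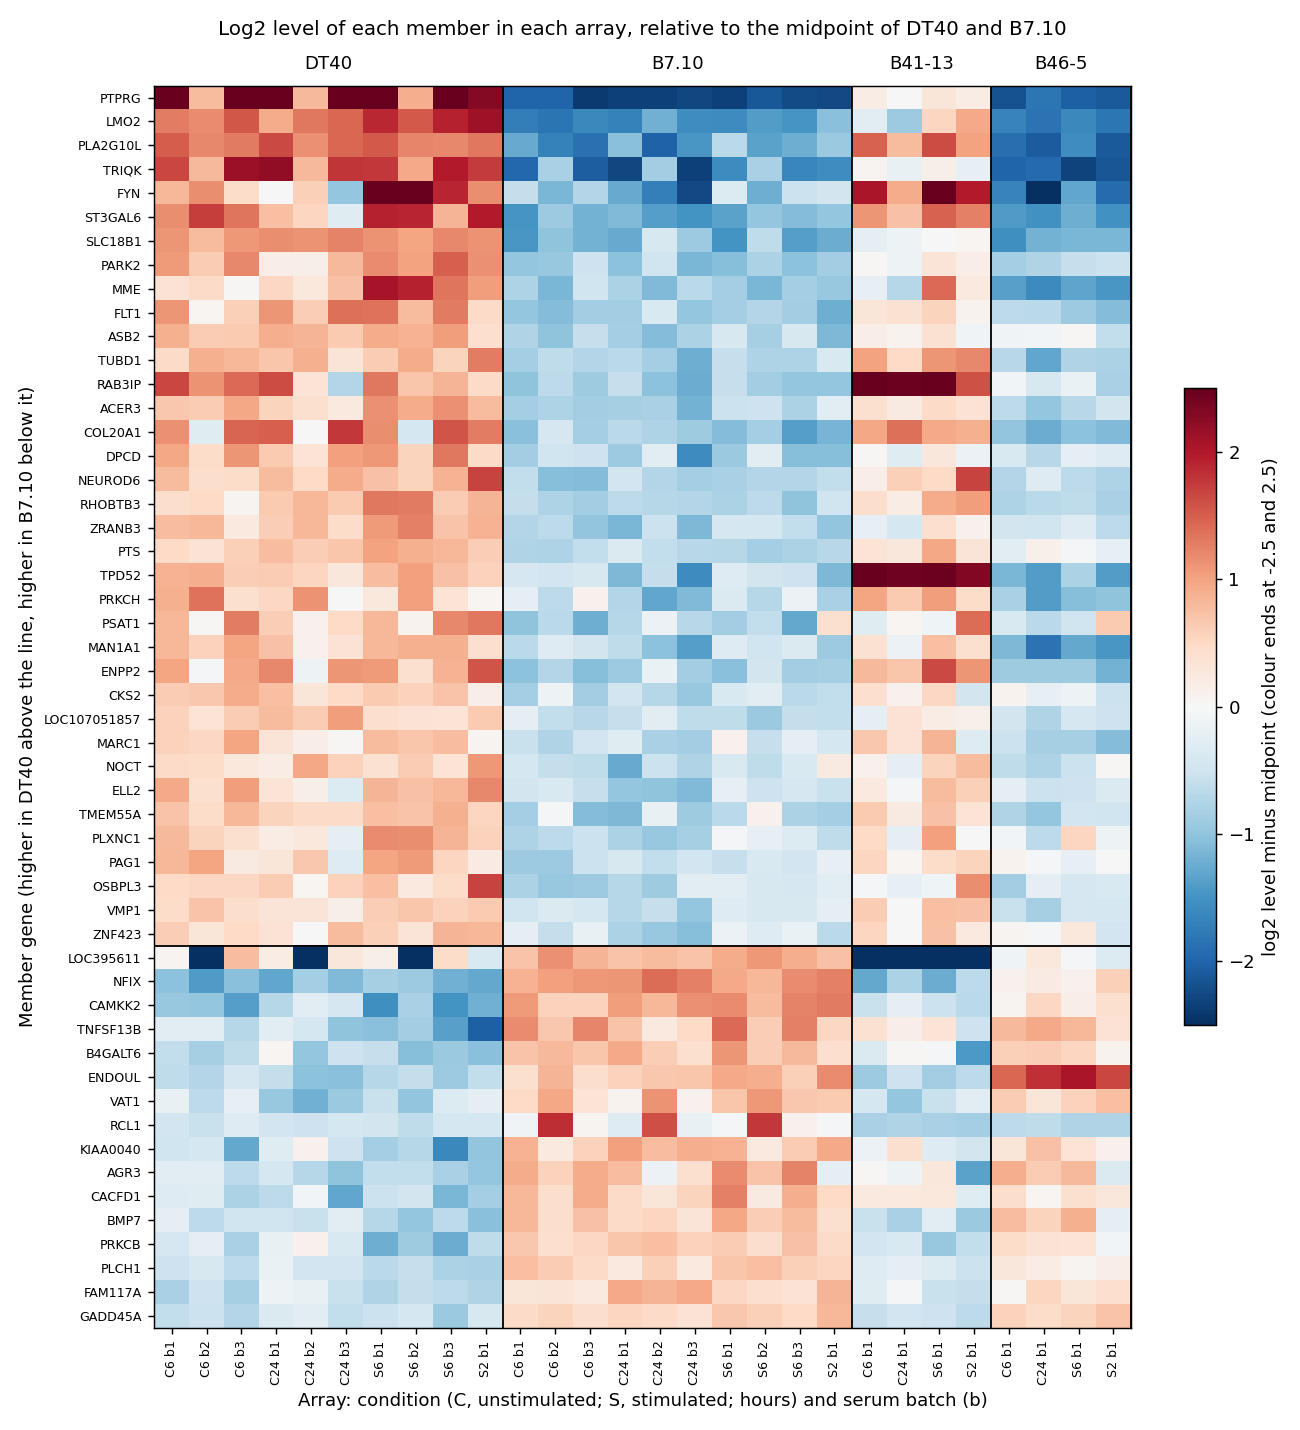
Log2 level of each of the 52 members (rows) in each of the 28 arrays (columns, by line, condition and serum batch), relative to the midpoint of the DT40 and B7.10 means, with colours ending at -2.5 and 2.5. B41-13 takes the colour of DT40 in most rows and B46-5 that of B7.10, while the rows of LOC395611 and RCL1 change colour in serum batch 2.

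Of the genes for kinases, phosphatases, signalling lipases and adaptors, 7 were members, with FYN, PRKCH, PAG1 and PTPRG higher in DT40 and PRKCB, CAMKK2 and PLCH1 higher in B7.10. FYN is a Src-family tyrosine kinase of the antigen receptor pathway. Its level in DT40 ran from 6.65 to 10.24 log2 (median 8.62) and in B7.10 from 5.37 to 7.28 (median 6.69). In B41-13 it was 9.66 at 6 h and 8.55 at 24 h without stimulation, and 9.61 at 2 h and 10.21 at 6 h with it, and in B46-5 it was 5.95, 4.70, 5.70 and 6.32. Within serum batch 1 FYN thus stood above DT40 in B41-13 and below B7.10 in B46-5 at each condition, which gave shares of 1.15 and -0.58 at a D of 2.22. The largest D of the group belonged to PTPRG, a receptor-type tyrosine phosphatase. PTPRG read between 3.11 and 3.50 in B7.10 and between 3.32 and 3.71 in B46-5, both near background, and between 5.52 and 5.81 in B41-13. In DT40 it read 6.31, 6.32 and 6.42 in serum batch 2 and from 7.82 to 8.69 in the other batches, so D was 2.99 in batch 2 and 5.35 in batch 3, lower bounds because B7.10 is near background. Every B41-13 array lay below every DT40 array and above every B7.10 array, with a share of 0.58.

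The protein kinase C genes PRKCB and PRKCH were members, in opposite directions. PRKCB, the isoform that links the B-cell receptor to NF-kB in mammals, was higher in B7.10 with a D of -1.15. Its levels in B41-13 were 7.81, 7.91, 7.67 and 7.34, inside the DT40 range of 7.05 to 8.39, and in B46-5 they were 8.75, 8.65, 8.21 and 8.62 beside 8.71 to 9.02 in B7.10 (share 1.06 in B41-13 and 0.30 in B46-5). PRKCH, the eta isoform, was higher in DT40 with a D of 1.34, which was 2.06 in serum batch 2 and 0.62 in batch 3. PRKCH had a share of 0.98 in B41-13 and -0.40 in B46-5. PAG1, a membrane adaptor that recruits CSK and so restrains Src-family kinases, had a D of 1.08 and shares of 0.85 and 0.45. CAMKK2, a calmodulin-dependent kinase that activates AMPK, had a D of -1.75 with a share of 0.94 in B41-13 and 0.49 in B46-5, the closest to the limit of all members. PLCH1, a phospholipase C, had a D of -1.11 and shares of 0.82 and 0.34.

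**Figure D3:**
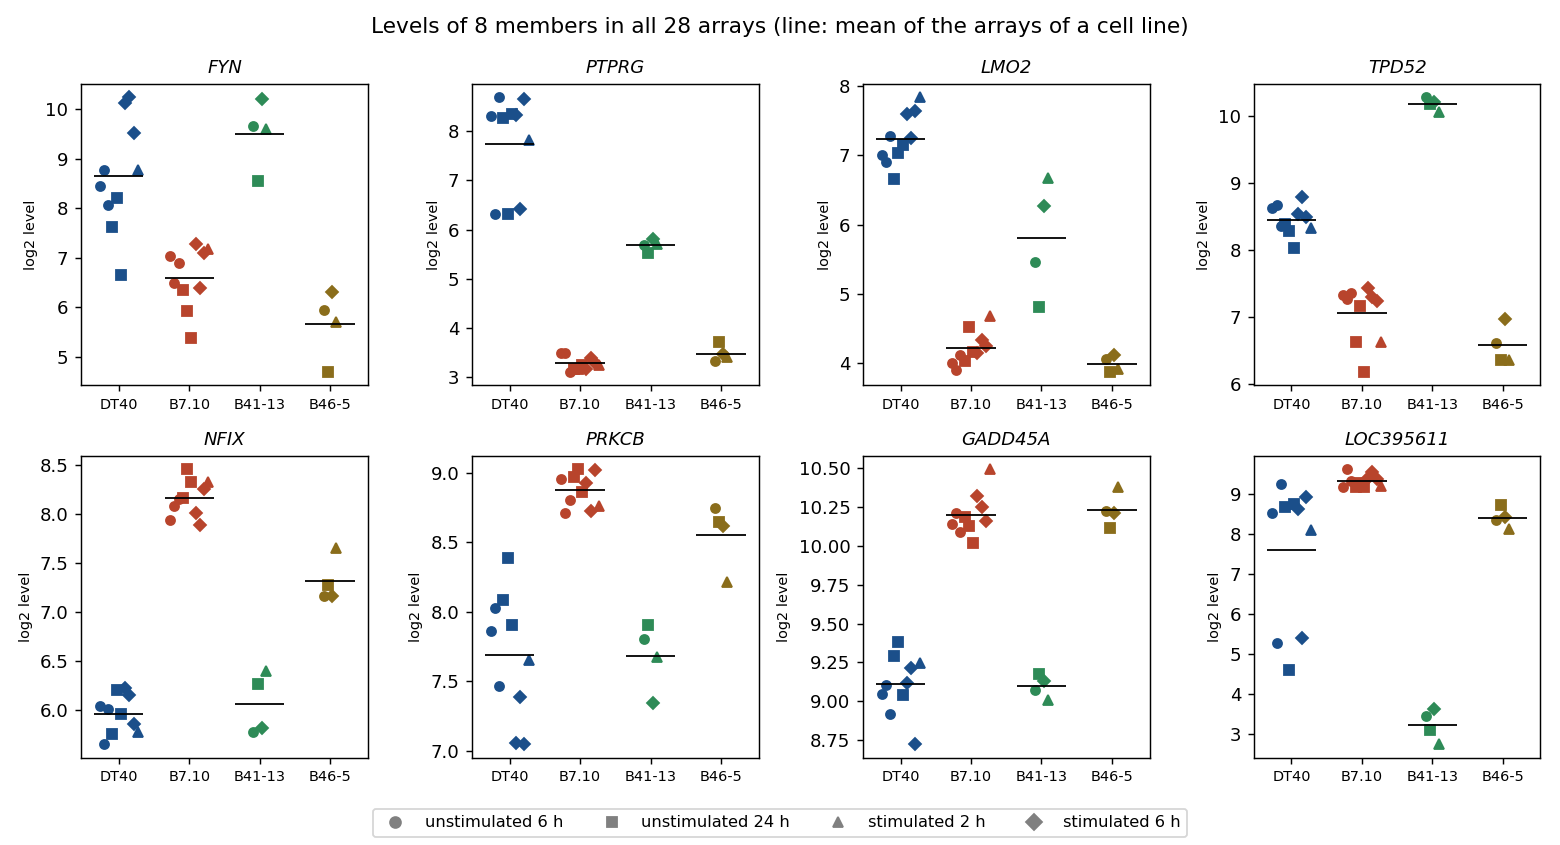
Log2 levels of 8 members in all 28 arrays (vertical axis, starting above 0 and differing between panels) by cell line, with the condition given by the marker and the mean of a line as a bar. TPD52 and LOC395611 pass beyond every DT40 array in B41-13, while FYN has a higher mean there but stays inside the DT40 range. In B41-13 PRKCB and GADD45A lie inside the DT40 range, and NFIX runs from 5.78 to 6.40, past the DT40 maximum of 6.23. PTPRG stays between B7.10 and DT40 there. LMO2 does so as well except at 2 h of stimulation, where its 6.67 is just above the DT40 minimum of 6.65.

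The 6 members grouped under transcription or cell identity were LMO2, NEUROD6, ELL2 and ZNF423, higher in DT40, and NFIX and FAM117A, higher in B7.10. LMO2 is a bridging protein in transcription complexes of blood stem cells and germinal centre B cells. LMO2 ran from 6.65 to 7.84 in DT40 (median 7.20) and from 3.90 to 4.69 in B7.10 (median 4.16). In B41-13 it read 5.47 and 4.81 without stimulation at 6 h and 24 h and 6.67 and 6.26 with it at 2 h and 6 h, while B46-5 read 4.06, 3.88, 3.91 and 4.12. The return was thus partial and differed by condition, with shares from 0.26 at 24 h to 0.70 at 6 h of stimulation and a mean of 0.53, close to the limit. NEUROD6, a basic helix-loop-helix factor known from neurons, had a D of 1.49, with shares of 0.92 and 0.01. ELL2, an RNA polymerase II elongation factor that in mice promotes the secretory form of immunoglobulin mRNA in plasma cells, had a D of 1.13 and shares of 0.83 and 0.12. ZNF423, which binds and inhibits the B-cell factor EBF1, had a D of 1.01 and shares of 0.84 and 0.41.

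NFIX is a nuclear factor I protein. It read from 5.66 to 6.23 in DT40 and from 7.89 to 8.45 in B7.10, without overlap in 20 arrays, for a D of -2.22. In B41-13 it was 5.78, 6.27, 6.40 and 5.82 and in B46-5 7.16, 7.27, 7.66 and 7.17, so B46-5 stood between the other lines (shares 0.92 and 0.36). FAM117A had a D of -1.08 and shares of 0.95 and 0.31.

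Among 7 receptors, ligands and secreted proteins, MME, FLT1, PLXNC1 and COL20A1 were higher in DT40 and TNFSF13B, BMP7 and AGR3 were higher in B7.10. MME encodes CD10, a surface peptidase of B-cell precursors and germinal centre B cells. It read from 6.05 to 8.09 in DT40 (median 6.65), from 4.88 to 5.53 in B7.10 (median 5.18), 5.82, 5.32, 6.28 and 7.44 in B41-13 and 4.66, 4.43, 4.58 and 4.71 in B46-5. Its share in B41-13 was 0.04 at 24 h and 1.33 at 6 h of stimulation, the widest spread over conditions among these receptors and ligands. FLT1, a receptor for vascular endothelial growth factor, had a D of 1.60, with shares of 0.82 and 0.09. PLXNC1, a plexin that binds semaphorin 7A, had a D of 1.09 and shares of 0.80 and 0.44. COL20A1, a collagen, had a D of 1.53 and shares of 1.33 and -0.06, but its D was 0.44 in serum batch 2 and 2.63 in batch 3.

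TNFSF13B encodes BAFF, the survival factor of B cells. It read from 6.87 to 8.64 in DT40 and from 9.16 to 10.32 in B7.10, for a D of -1.53. B41-13 read 9.30, 9.09, 8.40 and 9.26 and B46-5 9.72, 9.87, 9.28 and 9.75, so the levels of both lines lay close together (shares 0.56 and 0.14). BMP7, a bone morphogenetic protein, had a D of -1.17 with shares of 1.12 and 0.15. AGR3, of the protein disulphide isomerase family, had a D of -1.30 and shares of 0.73 and 0.12.

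Lipid and glycan enzymes made up 8 members, and 7 of these were higher in DT40. PLA2G10L, named as a phospholipase A2, read from 7.68 to 8.20 in DT40 and from 4.52 to 5.87 in B7.10, for a D of 2.85. It was 8.03, 7.33, 7.55 and 8.17 in B41-13 and 4.66, 4.46, 4.45 and 4.99 in B46-5, so B46-5 lay below the B7.10 arrays of serum batch 1 (shares 0.77 and -0.33). ENPP2, or autotaxin, makes lysophosphatidic acid, and its shares were 1.65 and -0.01 at a D of 1.22. The DT40 arrays of serum batch 1 had an ENPP2 share of 1.77, so on average B41-13 did not pass beyond DT40. In serum batch 2 ENPP2 read 4.71, 4.63 and 5.16 in DT40 beside 4.02, 4.59 and 4.29 in B7.10. ENPP2 was near background in B46-5 (3.58 to 3.86), and also in B7.10 in serum batch 1 (3.70 to 3.93) and batch 3 (3.69 to 3.88). Its D is therefore a lower bound, and its shares rest on levels near background. ACER3, a ceramidase, had a D of 1.54 with shares of 0.64 and -0.05. TMEM55A, a phosphoinositide phosphatase, and OSBPL3, an oxysterol-binding protein, had D of 1.13 and 1.03. B4GALT6, which makes lactosylceramide, was the gene higher in B7.10, with a D of -1.48 and shares of 0.84 and 0.23. ST3GAL6, a sialyltransferase, read from 4.07 to 6.36 in DT40 and from 5.10 to 5.85 in B41-13, and near background in B7.10 (2.89 to 3.47) and B46-5 (2.85 to 3.15). Its D of 2.18 is a lower bound, and its shares were 1.08 and -0.09. MAN1A1, a Golgi mannosidase of N-glycan trimming, had a D of 1.31 and shares of 0.75 and -0.61, the latter well below the knockout.

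All 5 genes of vesicle trafficking and ubiquitin transfer were higher in DT40. TPD52, a vesicle trafficking protein abundant in plasma cells and carcinomas, read from 8.03 to 8.78 in DT40 and from 6.18 to 7.43 in B7.10. In B41-13 it read 10.28, 10.18, 10.07 and 10.20, above every DT40 array, and in B46-5 6.61, 6.36, 6.36 and 6.97, which gave shares of 2.36 and -0.32 at a D of 1.35. RAB3IP, an exchange factor for Rab8, read 7.99, 7.60, 6.73 and 7.87 in B41-13, above DT40 at each condition of serum batch 1. Its 6.73 at 2 h of stimulation lay inside the full DT40 range of 4.41 to 6.81. In B7.10 RAB3IP read 3.90 to 4.56, and its shares were 2.06 and 0.27. RHOBTB3 had a D of 1.46 and shares of 0.88 and -0.07. PARK2, the ubiquitin ligase parkin, had a D of 1.70 and shares of 0.64 and 0.18, and ASB2, a substrate receptor of a cullin ligase, a D of 1.57 and shares of 0.59 and 0.38.

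The 5 genes of cell cycle, DNA and stress were GADD45A, higher in B7.10, and CKS2, ZRANB3, TUBD1 and VMP1, higher in DT40. GADD45A, a growth arrest and DNA damage protein, had little spread: 8.73 to 9.38 in DT40, 10.02 to 10.49 in B7.10, 9.07, 9.18, 9.01 and 9.13 in B41-13, and 10.22, 10.11, 10.38 and 10.21 in B46-5. Each B41-13 array lay within the DT40 range and each B46-5 array within the B7.10 range, with shares of 1.10 and 0.05. CKS2, a subunit of cyclin-dependent kinases, had a D of 1.21 and shares of 0.59 and 0.32. ZRANB3, which remodels stalled replication forks, had a D of 1.45 and shares of 0.55 and 0.23. TUBD1, delta-tubulin, and VMP1, a protein of autophagosome formation, had D of 1.56 and 1.01 with shares of 1.01 and -0.17, and 0.96 and -0.12. The gene table of the chicken reference places VMP1 and TUBD1 on chromosome 19 with 1 protein-coding gene between them, RPS6KB1, whose D was 0.13, and the flanking PTRH2 and RNFT1 had D of 0.24 and -0.01. The TUBD1 value rests on 1 of 5 probe sets, as the other 4 had D between -0.07 and 0.19.

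Of the remaining members, 6 belong to metabolism and transport and 8 to RNA processing or other roles. PSAT1, of serine synthesis, SLC18B1, a vesicular polyamine transporter, PTS, of tetrahydrobiopterin synthesis, and MARC1, a mitochondrial reductase, had D of 1.31, 1.99, 1.39 and 1.15. VAT1 and CACFD1 were higher in B7.10, with D of -1.43 and -1.24. NOCT, nocturnin, a protein with circadian rhythm in mice, had a D of 1.13 and shares of 0.68 and -0.01. TRIQK had a D of 2.83 with shares of 0.63 and -0.09, DPCD 1.51 with 0.60 and 0.36, LOC107051857 1.18 with 0.53 and -0.02, and KIAA0040 -1.30 with 0.81 and 0.43. ENDOUL, named as an endoribonuclease, was near background in DT40 (3.56 to 4.18) and B41-13 (3.69 to 4.09). It read 5.01 to 5.78 in B7.10 and 6.02, 6.43, 6.26 and 6.64 in B46-5, so the line with inactive BTK stood above the knockout in every array (share -0.65).

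LOC395611 and RCL1 entered the group through serum batch 2. LOC395611 read 5.27, 4.60 and 5.40 in DT40 in that batch but 8.11 to 9.26 in the others, beside 9.19 to 9.63 in B7.10, 8.13 to 8.74 in B46-5 and 2.74 to 3.63 in B41-13. Its D was -4.40 in batch 2 and -0.32 in batch 3, and B41-13 alone was near background. RCL1, of ribosomal RNA processing, read 12.79, 12.56 and 12.72 in B7.10 in batch 2 and 10.62 to 11.05 in the others. RCL1 lay between 10.10 and 10.19 in B41-13 and between 10.20 and 10.31 in B46-5, below the DT40 range of 10.32 to 10.62, so its shares of 0.51 and 0.43 hardly separate the lines. Over the group, 13 genes had a D in 1 of these batches that was less than 0.5 of that in the other. TRIQK, PSAT1 and TMEM55A were among them, each with the smaller D in batch 2. A D of at least 1 in size in each of the 3 batches was found for 30 genes. All 52 kept 1 sign in the 3 batches, which the rule itself required in batches 2 and 3. In batch 1 the rule used the B7.10 arrays but not those of DT40.

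The members nearest the limits inside were CAMKK2, RCL1 and LMO2. Just outside lay TOX (D 1.09, shares 0.49 and -0.73), TAGLN3 (2.28, with 0.48 and 0.03) and CADPS (2.29, with 0.82 and 0.53). Of the 52 genes, 30 had further probe sets, 59 in all, of which 33 were not near background. D had the same sign in 31 of these 33, and 11 of them, from 8 genes, met the rule by themselves: B4GALT6, BMP7, FYN, LMO2, NOCT, PLCH1, PRKCB and TNFSF13B. Further probe sets of PLXNC1 (D 1.17, shares 0.56 and 0.67) and ZRANB3 (1.31, with 0.30 and 0.17) had a D of at least 1 but did not meet the rule. The opposite sign was found in DPCD (D -0.19) and TUBD1 (-0.07).

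Whether the members also responded to the stimulus was asked within DT40 and B7.10. The rule averaged over conditions but used these arrays, other than those of DT40 in serum batch 1, so the responses described here and below are not independent of it. At 6 h, MME rose 2.82-fold in DT40, with an SE of 0.19 log2 (3 arrays a group; limma, Benjamini-Hochberg adjusted p = 0.00232, and 0.000380 to 0.0337 over all alternatives). The change was 1.72, 1.45 and 1.32 log2 in serum batches 1, 2 and 3. It was -0.08, -0.01 and -0.35 in B7.10, and 1.62 in B41-13 and 0.05 in B46-5, each from 1 pair of arrays that entered the rule. Without the stimulated 6 h condition of serum batch 1, MME no longer met the rule. The difference of the response between B7.10 and DT40 was -1.64 ± 0.27 log2 and did not pass (limma adjusted p = 0.176). MME was the 1 member called at 6 h in DT40, where 0.0922% of named genes were called.

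With the serum batch as a block, 3 members were called in DT40 at 6 h, beside 0.169% of named genes. These were MME (limma adjusted p = 0.00171), RHOBTB3 at 0.75 ± 0.12 (limma adjusted p = 0.0101) and FYN at 1.53 ± 0.28 (limma adjusted p = 0.0398). Without the block FYN and RHOBTB3 had adjusted p of 0.177 and 0.147. FYN was higher at 6 h of stimulation by 1.67, 1.47 and 1.45 in the 3 batches of DT40, by 0.55 in B41-13 and by 0.36 in B46-5. Its changes in B7.10 were 0.25, -0.09 and 0.20. PRKCB was lower by a mean of 0.62 in DT40 and did not pass (limma adjusted p = 0.252), with changes of -0.80, -0.64 and -0.42 by batch, and its change was -0.46 in B41-13.

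In B7.10 limma called 0 members at 6 h of stimulation and 0% of named genes. An unadjusted limma p under 0.05 was found for 4 members (7.69%), beside 14.9% of named genes. With the block 1 member, PLA2G10L, was called at 0.52 ± 0.12 (limma adjusted p = 0.0448), beside 1.45% of named genes. The difference of the responses was called for 0 members in limma (0.00769% of named genes, and 0.0154% and again 0 members with the block). Its unadjusted limma p was under 0.05 for 8 members (15.4%), beside 3.87% of named genes.

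**Figure D4:**
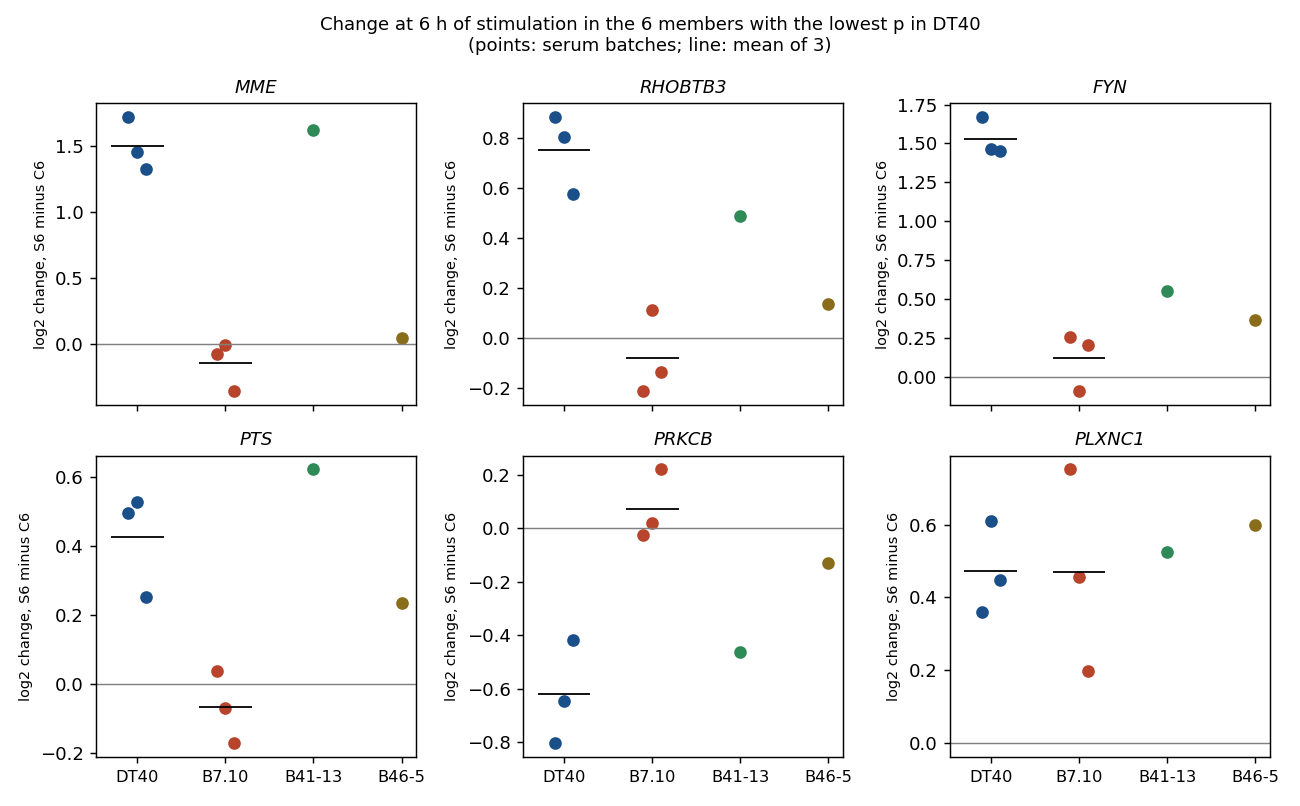
Change in log2 level from unstimulated to stimulated cells at 6 h (vertical axis, scaled per panel) in the 4 lines for the 6 members with the lowest p in DT40, with 1 point per serum batch and the mean of 3 as a bar. MME is higher by 1.32 to 1.72 in DT40 and by 1.62 in B41-13, and lies between -0.35 and 0.05 in B7.10 and B46-5.

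At 2 h of stimulation each line has 1 array, so the change from 6 h without stimulation was fitted over the 4 lines of serum batch 1. It was tested against the spread left after line and condition over all 16 arrays. That is not the spread of this change between lines. Time in culture differs between these conditions and cannot be told apart from stimulation. Of the members, 14 were called (26.9% of 52), beside 11% of named genes. The members that rose were PSAT1, OSBPL3 and NOCT. PSAT1 rose by 1.15 ± 0.14 log2 (SE of the fit, limma adjusted p = 6.75e-05). OSBPL3 rose by 0.85 ± 0.18 (limma adjusted p = 0.00582) and NOCT by 0.66 ± 0.11 (limma adjusted p = 0.00142). The 11 that fell were led by AGR3 at -1.13 ± 0.13 (limma adjusted p = 5.83e-05), TNFSF13B at -0.94 ± 0.19 (limma adjusted p = 0.00519) and RAB3IP at -0.79 ± 0.16 (limma adjusted p = 0.00451). BMP7, B4GALT6, PRKCH, MARC1, CKS2, ASB2, CACFD1 and FLT1 fell by 0.65 to 0.38. In B7.10 alone CKS2, MARC1 and RAB3IP stood 0.23, 0.11 and 0.06 log2 higher at 2 h, while the other lines had lower levels. Of all named genes 4.2% were called higher and 6.76% lower.

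All 5 called members that were higher in B7.10 fell at 2 h, namely TNFSF13B, B4GALT6, AGR3, CACFD1 and BMP7. TNFSF13B changed by -1.77 in DT40, -0.66 in B7.10, -0.89 in B41-13 and -0.44 in B46-5. Leaving out 1 line at a time gave 7 to 11 called members, lowest without B41-13, and PSAT1, NOCT, AGR3, TNFSF13B and BMP7 passed under every alternative tried. CACFD1 and FLT1 were lost whichever line was left out.

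NEUROD6 did not pass over the 4 lines (0.60 ± 0.20, limma adjusted p = 0.0785). It was higher at 2 h by 0.89 in DT40 and 1.52 in B41-13 and changed by 0.00 in B7.10 and -0.03 in B46-5, reaching 10.49 and 10.50 in the lines with active BTK against 8.19 and 8.05. LMO2 did not meet the rule without the stimulated 2 h condition of serum batch 1. At 2 h LMO2 was higher by 0.84 in DT40, 1.20 in B41-13 and 0.69 in B7.10, and lower by 0.15 in B46-5. These are single arrays, and the difference between lines was not tested.

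**Figure D5:**
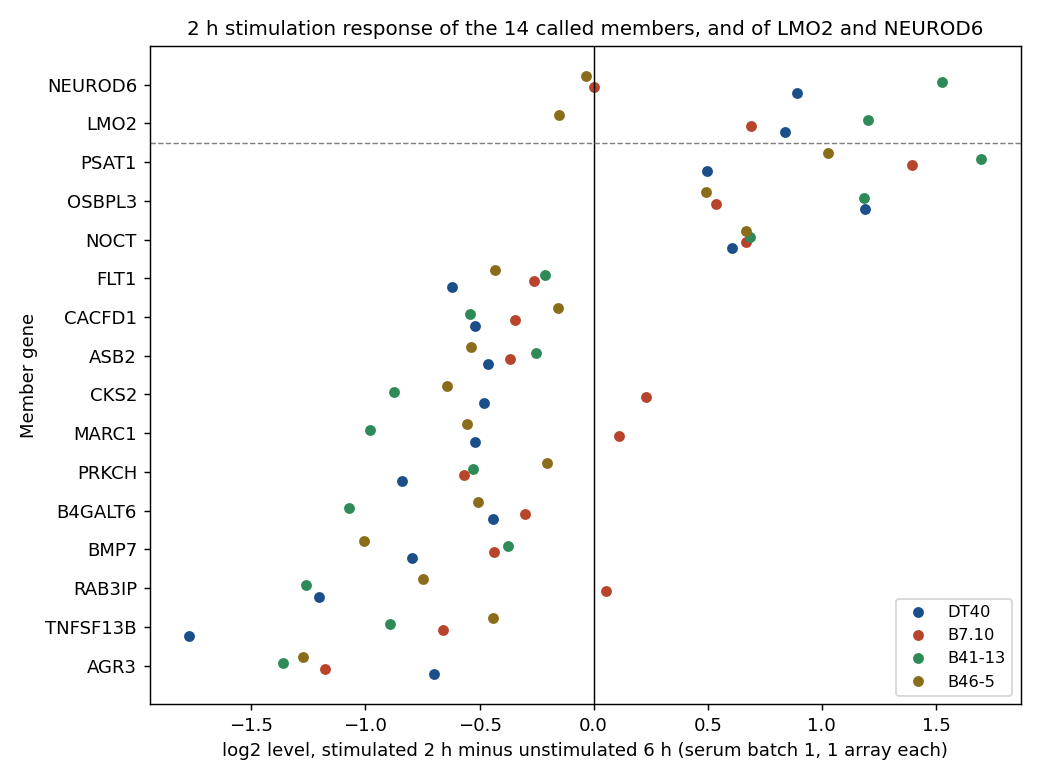
Change in log2 level from 6 h unstimulated to 2 h stimulated in each of the 4 lines (horizontal axis, 1 array each, serum batch 1) for the 14 members called over the lines (below the dashed line) and for LMO2 and NEUROD6 (above it). Of the called members PSAT1, OSBPL3 and NOCT lie above 0 in all lines, and NEUROD6 lies at 0.89 and 1.52 in DT40 and B41-13 and near 0 in the others.

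Time in culture without stimulation called 1 member in DT40 and 1 in B7.10. ELL2 fell in DT40 between 6 h and 24 h by 0.76 log2 with an SE of 0.16 (limma adjusted p = 0.0375), beside 0.753% of named genes called, and FAM117A rose in B7.10 by 0.63 ± 0.11 (limma adjusted p = 0.0263), beside 0.277% of named genes. Neither passed without the disputed arrays (adjusted p = 0.0626 and 0.0529, with ranges over all alternatives of 0.00759 to 0.176 and 0.00871 to 0.157), and each was lost in 4 of the 6 fits that left out 1 array of its groups. With the block 4 members were called in DT40, beside 1.75% of named genes, namely ST3GAL6 at -1.08 ± 0.23 (limma adjusted p = 0.0236), ELL2, PLXNC1 at -0.52 ± 0.12 (limma adjusted p = 0.0364) and FAM117A at 0.44 ± 0.10 (limma adjusted p = 0.0445). In B7.10 the block gave 3, beside 0.853% of named genes, namely FAM117A, TPD52 at -0.66 ± 0.14 and ZNF423 at -0.59 ± 0.13 (limma adjusted p = 0.0435 for each of the latter). The 24 h change differed between the lines for 0 members in limma (0.0154% of named genes called, with and without the block). For that difference 3 members (5.77%) had an unadjusted limma p under 0.05, beside 5.39% of named genes.

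Serum batches differed for 2 members over DT40 and B7.10 by limma's F test, beside 0.969% of named genes. PLA2G10L was lower in batch 2 than in batch 1 by 0.54 log2 and lower in batch 3 by 0.39 (limma adjusted p = 0.0166). ZRANB3 was 0.19 higher in batch 2 and 0.24 lower in batch 3 (limma adjusted p = 0.0396). PLA2G10L was lost without the 24 h or the stimulated 6 h array of B7.10 in batch 1 (2 of 18 fits), and ZRANB3 was lost in 13 of 18. The batch differences of PTPRG, LOC395611, RCL1 and COL20A1 described above are specific to a line, which this additive test does not address.

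Of 43 measured genes of a B-cell receptor signalling list, 3 were members (FYN, PRKCB and PAG1), beside 52 of the 13009 named genes. The lists were chosen with earlier results of these data known, so this count is a description. The rule also used the arrays of B41-13 and B46-5, so a difference of members between these lines is no separate evidence. In the fit of serum batch 1, where 15.3% of named genes differed between B41-13 and B46-5 (7.01% higher and 8.32% lower in B41-13), 11 of the 43 were higher in B41-13 and 7 were lower, FYN and PRKCB among them. The median difference over the list was 0.04 log2, beside -0.01 over all named genes. Here the 4 conditions of a line stand in for replicates, so SE and p do not measure the spread between replicate pools or lines. The non-members with the lowest p were TEC, a kinase of the same family as BTK, higher by 2.40 ± 0.13 (limma adjusted p = 1.14e-09), the phosphoinositide kinase subunit PIK3CB, higher by 1.77 ± 0.19 (limma adjusted p = 2.78e-06), and the adaptor BANK1, lower by 1.01 with an SE of 0.11 (limma adjusted p = 5.82e-06). TEC had mean levels of 4.06 in DT40, 4.54 in B7.10, 5.83 in B41-13 and 3.43 in B46-5, the last near background, so its difference is a lower bound.

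Of 25 measured NF-kB subunits and targets, 0 were members, while 8 were higher in B41-13 and 2 were lower, with a median difference of 0.30. NFKB1, the p50 subunit, was higher by 1.23 ± 0.18 (limma adjusted p = 0.000128), and the target CD44, an adhesion receptor, was lower by 0.68 with an SE of 0.10 (limma adjusted p = 0.000177). Of 30 genes of calcium, NFAT and early response, 1 was a member (CAMKK2), 4 were higher and 3 lower, with a median difference of 0.13. The phosphatase DUSP4 was lower by 1.63 with an SE of 0.16 (limma adjusted p = 9.49e-07). Between DT40 and B7.10, where 19.6% of named genes were called (12.8% higher and 6.8% lower in DT40), the counts in these lists were 10 higher and 13 lower, 10 and 2, and 10 and 1.

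Of the 52 members, 51 were placed in the gene table, on 20 chromosomes. Pairs with at most 1 protein-coding gene between them were VMP1 and TUBD1, ELL2 and RHOBTB3 on chromosome Z (with GLRX between, D 0.11), and PLCH1 and MME on chromosome 9, which differ in opposite directions.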

How the data were processed

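The authors deposited 1 log2 value per probe set and array, made with RMA per the submitters' processing notes, without a version given in the sources used here. Of 38535 probe sets, 153 controls were left out. Symbols came from the platform annotation, and the brightest probe set stood for each of 13009 genes. The members and lists were chosen with earlier results of these data known.

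In limma 3.58.1 (R 4.3.3), 18 arrays of DT40 and B7.10 were fitted as 6 group means (12 residual degrees of freedom), and 16 arrays of serum batch 1 as line plus condition (9). Calls are Benjamini-Hochberg adjusted p under 0.05 over 38382 probe sets. The serum batch is the shared replicate number, so numbers pair the arrays: deviations correlated with a median of 0.122 within batches and -0.0600 between them. The fit with that block (10 residual degrees of freedom) was run too. Python 3.11.15 with pandas 2.3.3 made the tables, and matplotlib 3.10.9 the figures. Members were named by direction, size of D, share, test and list, and the rest by role. The number of arrays limits precision.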

Additional observations from a re-analysis of the deposited data

How the results depend on the processing

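The group of 52 genes became 20 with a D of at least 1.5 in size, and between 36 and 64 under the other limits, conditions, scalings and probe set choices. These sizes hide an exchange of genes. Without the stimulated 6 h condition of serum batch 1, for example, CACFD1, LMO2, LOC107051857, MME and RCL1 left the group. CADPS, ITGA4, MTSS1, TAGLN3 and TOX entered it instead. With the replicate block, stimulation at 6 h called 41 probe sets and 3 members in DT40 and 616 and 1 in B7.10, its difference between lines called 2 probe sets, and 24 h called 554 and 4 in DT40 and 270 and 3 in B7.10, and it changed no other call of a member and no other count by over 1.5 times. After cyclic loess, 1 probe set was called for stimulation in B7.10 and 1 member for serum batches. Without the disputed arrays, probe sets called were 0 for the difference of the 6 h response, 146 for 24 h in DT40, 25 for 24 h in B7.10, 1 for the difference at 24 h, 102 for serum batches and 2190 between B41-13 and B46-5. Members called then were 0 for 24 h in DT40, 0 for 24 h in B7.10 and 0 for serum batches. Fewer arrays entered these fits, and otherwise the cause was not tested.

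Leaving out 1 array, line, condition or batch at a time gave these ranges. Stimulation at 6 h called 5 to 38 probe sets and 1 to 2 members in DT40, and 0 to 74 and 0 to 0 in B7.10, and the difference called 0 to 12 and 0 to 1. For 24 h the ranges were 69 to 1341 and 0 to 4 in DT40, 9 to 290 and 0 to 2 in B7.10, and 1 to 2 and 0 to 0 for the difference. Serum batches called 112 to 361 and 0 to 2, and the 2 h response 1367 to 1862 and 7 to 11. Between lines the probe sets called were 2905 to 3294 for B41-13 against B46-5 and 3083 to 4149 for DT40 against B7.10. Of 189 alternative values of called members, 135 stayed called, 54 did not, and 0 reversed. Signal over background limits the values of PTPRG, ST3GAL6, ENPP2, ENDOUL, LOC395611 and TEC, which were near background in at least 1 line.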
